A study of Mus musculus with 12 samples.

Results

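Axon guidance ligands and receptors were followed in RNA-Seq values of the adult mouse hippocampus. The genes were chosen by a rule on gene symbols, as the protein-coding genes whose symbols start with the stems of the semaphorin (Sema3 to Sema7), plexin, Eph receptor, ephrin, Slit, Robo and Unc5 families, together with Dcc, Ntn1, Ntn4, Nrp1 and Nrp2. This gave 69 genes, out of 22013 protein-coding genes and 35580 genes of any kind in the file. Of these, 33 encode ligands and 34 encode receptors. The remaining 2, Unc50 and Unc5cl, carry the letters of the Unc5 stem but are not netrin receptors, and they are kept in all counts. RNA came from 12 male C57BL/6 mice killed at postnatal day 70, sequenced one by one, with 3 mice in each of 4 groups. Control mice had dams that drank water only and were left with them. Ethanol mice had dams with free access to 10% ethanol beside water through gestation (until postnatal day 10 by the methods of the study), so that the dose was set by each dam's own drinking. Stress mice had water-drinking dams and were taken from dam and littermates for 3 h a day on postnatal days 2 to 14, and ethanol + stress mice had both treatments. No group carries a transgene or deletion, and strain, sex and age are shared by all. Pups of each litter were drawn at random for separation, so that mice with and without stress may be littermates. The labels give no litter, and mice of the same group may also share a dam. The p values therefore measure the spread between these individual mice, not between dams.

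Guidance cues steer growing axons by attraction or repulsion. Slits signal through Robo receptors, netrins through Dcc (attraction) and the Unc5 receptors (repulsion), class 3 semaphorins through neuropilins paired with plexins, most other semaphorins through plexins directly, and ephrins through Eph receptor tyrosine kinases at sites of cell contact, where the ephrin-bearing cell can also receive a signal. In the developing hippocampus these families place the mossy fibres, the Schaffer collaterals and the entorhinal input, and several of them stay expressed in the adult, where Eph receptors and semaphorins act at dendritic spines.

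Values are TPM (kallisto's transcript abundance), a level corrected for transcript length, summed over the transcripts of a gene. Levels of different genes can therefore be compared, whereas fewer cells of a type and less RNA per cell cannot be told apart in this bulk tissue. Between 12050000 and 14860000 read pairs were recovered per library from the steps in the low values. All 69 genes passed the filter on low values (0.1 TPM or more in at least 6 of 12 libraries), and 3 of them (Efna4, Epha1 and Unc5cl) lay at 3 read pairs or fewer in at least 1 library, the limit that counting error sets. Summed markers of dentate granule cells (78.03 to 122 TPM), CA1 pyramidal cells (209 to 302 TPM) and CA2 and CA3 pyramidal cells (499 to 665 TPM) were present in every library, with neocortex markers at 46.2 to 65.6 TPM.

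In control hippocampus the module was led by Epha4, a receptor of both ephrin classes found on dendrites and astrocytes, at 148 ± 17.3 TPM (SD, n = 3). Over all 12 mice, 5 genes averaged 50 TPM or more, 31 lay between 10 and 50 TPM, 29 between 1 and 10 TPM and 4 under 1 TPM. Among the ligands, Slit1 reached 48.2 ± 1.34 TPM among controls, well above Slit3 (17.0 ± 0.54 TPM) and Slit2 (14.9 ± 1.82 TPM). Sema3e (23.0 ± 0.81 TPM) and Sema3c (15.4 ± 3.02 TPM) were the highest secreted semaphorins. Membrane-bound Sema7a, which is anchored by a lipid (56.0 ± 3.19 TPM), and Sema6b (50.4 ± 3.73 TPM) were the highest of the class 4 to 7 semaphorins, and their control values (52.4 to 58.4 and 46.1 to 52.8 TPM) overlapped. Efna3 (37.7 ± 2.44 TPM) made up most of the ephrin-A ligands, which are tethered by a lipid, with Efna1 next at 6.79 ± 0.58 TPM. Efnb3 (48.7 ± 2.95 TPM) and Efnb2 (15.1 ± 0.65 TPM) led the transmembrane ephrin-B ligands. Both netrins were low, with Ntn4 at 2.87 ± 0.21 TPM and Ntn1 at 2.97 ± 0.27 TPM.

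Receptors were higher in sum than ligands, at 809 ± 31.3 TPM against 516 ± 15.4 TPM among controls. The EphA receptors alone made up 357 ± 24.5 TPM, with Epha7 second at 82.2 ± 9.53 TPM. Ephb6, whose kinase domain lacks catalytic activity, was the highest EphB receptor at 45.0 ± 5.77 TPM, followed by Ephb1 at 12.6 ± 1.67 TPM. Robo2 (43.3 ± 4.40 TPM) exceeded Robo1 (22.3 ± 1.79 TPM), whereas Robo4, the Robo receptor of blood vessels, was at 1.91 ± 0.83 TPM. Nrp1 (49.7 ± 5.25 TPM) exceeded Nrp2 (17.3 ± 0.53 TPM). Plxnb1 (26.0 ± 1.54 TPM), the receptor of Sema4d, and Plxna4 (26.6 ± 0.93 TPM), a partner of neuropilins, overlapped in control. Of the netrin receptors, Unc5a (33.5 ± 0.15 TPM) and Unc5c (15.9 ± 1.12 TPM) stood above Dcc (7.26 ± 0.70 TPM). Epha1, a mainly epithelial Eph receptor, was the lowest guidance gene at 0.229 ± 0.0458 TPM, close to the counting limit.

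**Figure D1:**
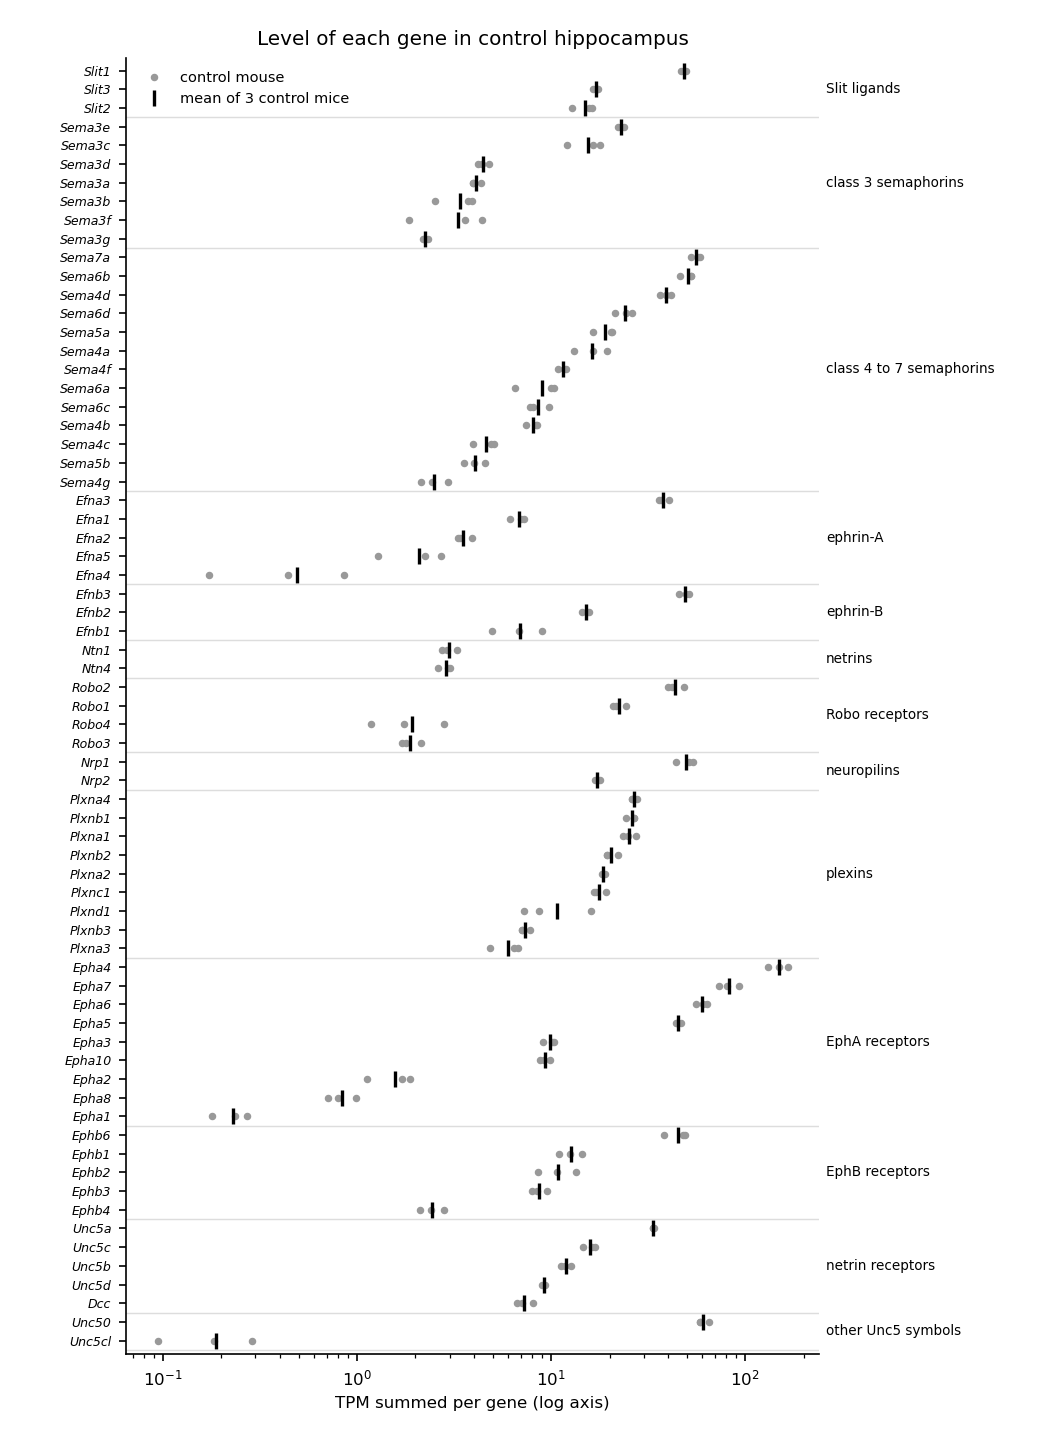
TPM summed per gene (horizontal log axis) for the 69 genes in the 3 control mice (grey points) and their mean (black bar), grouped by family. The EphA receptor Epha4 lies highest, near 148 TPM, and Unc5cl, Epha1 and Efna4 lie lowest, under 1 TPM.

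Mice of the same treated group differed widely in these genes. Relative to the mean of the control mice, the median of the 69 genes was -0.30 on the log2 scale in ethanol mouse 2, -0.35 in ethanol + stress mouse 2 and -0.20 in ethanol + stress mouse 3, with 53, 58 and 54 genes below the control mean. The same median was 0.09 in ethanol mouse 3, 0.09 in stress mouse 2 and 0.10 in ethanol + stress mouse 1, where only 22, 20 and 19 genes lay below it. Control mice stayed between -0.01 and 0.02. The SD of a gene within a group exceeded its control SD for 53 genes with ethanol, 46 with stress and 54 with both (76.8%, 66.7% and 78.3%), beside 65.3%, 58.1% and 67.2% of all tested genes.

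The 3 libraries with the lowest medians also differed in other values. Their 20 highest transcripts held 29.2%, 27.5% and 28.8% of all TPM, against 20.3% to 25.0% in the other 9 libraries. Genes of 5 kb or more had medians of -0.17, -0.18 and -0.11 in them and of -0.12 in stress mouse 1, where the guidance genes had a median of -0.15, and the guidance genes are long, with a median transcript length of 4177 bases against 2274.5 bases over all tested genes. With each library's trend over length removed, the medians of the guidance genes were -0.21, -0.26 and -0.19. All 5 blood markers passed the test in ethanol and in ethanol + stress mice, and their sum was 1603 to 2022 TPM among controls, 3146 to 6815 TPM under ethanol, 2593 to 3392 TPM under stress and 2454 to 6479.7 TPM under both treatments, highest in ethanol mouse 2 and ethanol + stress mouse 2. Choroid plexus markers varied from 41.0 to 7240.4 TPM between libraries, without a marker passing the test, and no marker of either list was at 0 throughout. The same 3 libraries were the 3 highest of 12 for summed markers of astrocytes (1101, 1111 and 1173 TPM, others 738 to 967 TPM) and microglia (261, 280 and 308 TPM, others 197 to 249 TPM), and the 3 lowest for CA1 pyramidal cells (213, 209 and 234 TPM, others 239 to 302 TPM). None of the 5 markers on each of these 3 lists was called in a comparison with control, and none was at 0 in all libraries. Markers of CA2 and CA3 pyramidal cells were high in the same libraries (645, 628 and 665 TPM, controls 499 to 542 TPM), with 1 of 6 called in ethanol + stress mice. So were oligodendrocyte markers (5354, 6167 and 6144 TPM, controls 4428 to 4803 TPM), with none called. Stress mouse 1 was at 641 and 5670 TPM for these 2 lists. The part of these values in the results below was not tested.

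**Figure D2:**
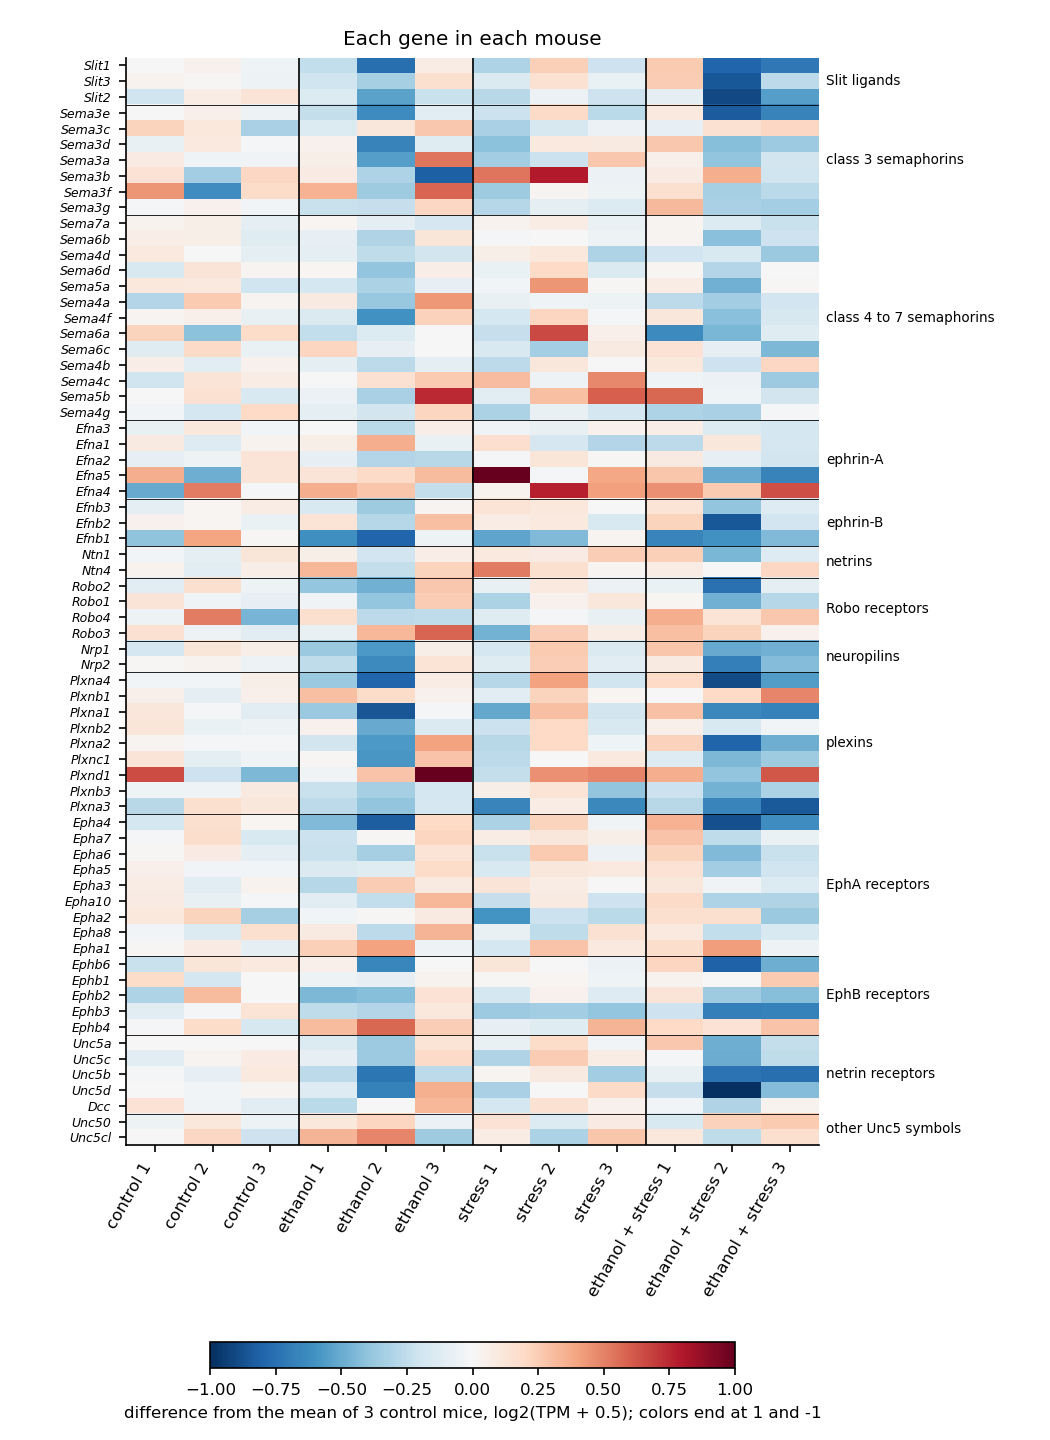
Difference of each of the 69 genes (rows, by family) in each of the 12 mice (columns) from the mean of the 3 control mice, on the log2(TPM + 0.5) scale, blue below and red above. Ethanol mouse 2 and ethanol + stress mice 2 and 3 are mostly blue (medians of -0.30, -0.35 and -0.20), whereas ethanol mouse 3, stress mouse 2 and ethanol + stress mouse 1 are mostly red (0.09, 0.09 and 0.10).

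The first comparison asked what prenatal ethanol alone does. None of the 69 genes differed between ethanol and control mice at an unadjusted p below 0.01 (limma, two-sided), where 0.678% of all tested genes did, and none had a p below 0.05, where 3.63% of all genes did. The lowest p was 0.0525, for Ephb4, the ephrin-B2 receptor of veins. In single mice, Ephb4 was at 2.39, 2.82 and 2.12 TPM among controls and at 3.16, 3.86 and 2.97 TPM under ethanol, with a log2 difference of 0.38 ± 0.18 (SE). The groups did not overlap, and Ephb4 was the only guidance gene with all ethanol values above control (5.06% of all genes). All ethanol values lay below control for 4 genes (3.19% of all genes), namely Efna2, Plxnb3, Sema3e and Unc5b. Unc5b, a repulsive netrin receptor also found on vessels, was at 11.7, 11.2 and 12.7 TPM among controls and at 9.79, 6.99 and 9.80 TPM under ethanol, a log2 difference of -0.42 ± 0.20 (SE). Sema3e, the ligand of Plxnd1, was at 23.0, 23.8 and 22.2 TPM among controls and at 19.5, 14.7 and 21.3 TPM under ethanol, with the lowest value in ethanol mouse 2 for both. Over the module, 45 genes were lower and 24 higher, with a median of -0.09 on the log2 scale, whereas 44.4% of all tested genes were lower with a median of 0.02. On a common total 53 genes were lower with a median of -0.17, beside 61.4% of all genes. With the trend over length removed 43 were lower, and the median relative to that of all genes was -0.06 in place of -0.11. The median of -0.09 rests on ethanol mouse 2, being 0.00 with 34 genes lower without it. Without ethanol mouse 3 the median was further from control, at -0.19 with 56 genes lower.

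The second comparison asked the same of maternal separation stress alone. No guidance gene passed p below 0.01 against control (0.51% of all genes did) and 1 passed p below 0.05 (2.4% of all genes did). This was Ephb3, an EphB receptor that acts with Ephb1 and Ephb2 in commissure formation and spine development, on chr16:21204755-21223305 (+ strand, GRCm38). Ephb3 was at 7.93, 8.48 and 9.51 TPM among controls and at 6.60, 6.65 and 6.48 TPM under stress mice. The stress values lay close together and below every control value, with a log2 difference of -0.37 ± 0.16 (SE, unadjusted p = 0.0439, adjusted p = 1.0 by limma). Sema3g was the other of 2 genes with all stress values below control (3.39% of all genes), at 2.23, 2.33 and 2.20 TPM among controls and 1.75, 2.07 and 2.00 TPM under stress. No gene had all stress values above control (3.81% of all genes). In the module, 41 genes were lower and 28 higher (median -0.02), beside 48.5% lower (median 0.00) among all genes. Without stress mouse 1 the median was 0.04 with 27 genes lower, and without stress mouse 2 it was -0.08 with 52 genes lower, and there Plxna3 alone passed p below 0.01 (0.477% of all genes did).

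In mice with both treatments 1 guidance gene passed p below 0.01 (0.971% of all genes did) and 6 passed p below 0.05 (5.37% of all genes did). The 6 genes were Ephb3, Plxna3, Slit2, Unc5b, Efnb1 and Unc5d, all lower than in control. The called gene was Ephb3, at 7.42, 5.17 and 5.22 TPM under both treatments, below all 3 control values given above. Its log2 difference was -0.52 ± 0.16 (SE, unadjusted p = 0.00765, adjusted p = 0.791 by limma). The call was lost when any of 9 of the 12 libraries was left out (all but ethanol mice 2 and 3 and ethanol + stress mouse 1), with p up to 0.0334 and the difference between -0.68 and -0.44. It was also lost on rescaling to a common total (-0.65, unadjusted p = 0.0187, adjusted p = 0.781 by limma), with only the 2 groups compared and with a replicate block. No guidance gene reached an adjusted p under 0.791 in this comparison, and the 3 comparisons with control share the same 3 control mice.

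Of the 6 genes, 4 had all ethanol + stress values below control. Plxna3, a plexin that carries signals of class 3 semaphorins through neuropilins, lies on chrX:74329066-74344689 (+ strand). It was at 4.83, 6.72 and 6.48 TPM among controls, 4.89, 4.42 and 5.25 TPM under ethanol, 3.57, 6.29 and 3.63 TPM under stress and 4.83, 3.58 and 3.10 TPM under both treatments. The lowest control mouse and the highest ethanol + stress mouse were nearly equal, and the log2 difference was -0.59 ± 0.23 (SE, unadjusted p = 0.0227, adjusted p = 0.791 by limma). Efnb1, a transmembrane ligand of EphB receptors, lies on chrX:99136130-99148991 (+ strand). It was at 4.97, 9.01 and 6.81 TPM among controls, 4.24, 3.67 and 6.49 TPM under ethanol, 4.54, 4.83 and 6.87 TPM under stress and 4.08, 4.25 and 4.83 TPM under both treatments. Its control values were widely spread, and the log2 difference was -0.57 ± 0.24 (SE, unadjusted p = 0.0378, adjusted p = 0.791 by limma). Unc5d, a netrin receptor that also binds Flrt2 on migrating neurons, lies on chr8:28646717-29219636 (- strand). It was at 9.15, 9.02 and 9.35 TPM among controls, 8.36, 5.54 and 11.9 TPM under ethanol, 7.25, 9.15 and 10.6 TPM under stress and 7.77, 4.00 and 6.65 TPM under both treatments. Control mice were nearly equal while the ethanol mice ran from below to above them, and the ethanol + stress difference was -0.59 ± 0.27 (SE, unadjusted p = 0.0495, adjusted p = 0.791 by limma).

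Slit2 and Unc5b overlapped between control and ethanol + stress mice. Slit2, the main repellent for Robo1 and Robo2, was at 12.9, 15.7 and 16.3 TPM among controls and 13.9, 7.71 and 9.99 TPM under both treatments (log2 difference -0.52 ± 0.19 SE). Unc5b was at 11.2, 6.89 and 6.83 TPM under both treatments (-0.52 ± 0.20 SE), with mouse 1 level with the control values of 11.2 to 12.7 TPM. In all, 7 genes had every ethanol + stress value below control (4.62% of all genes), namely Efnb1, Ephb3, Plxna3, Plxnb3, Plxnc1, Sema4d and Unc5d, and none had every value above (5.63% of all genes). Plxnb3, a plexin enriched in oligodendrocytes, was at 7.07, 7.10 and 7.81 TPM among controls and 6.23, 5.14 and 5.78 TPM under both treatments. Sema4d was at 41.6, 38.9 and 36.2 TPM among controls and 34.0, 34.9 and 29.9 TPM under both treatments. Summed oligodendrocyte markers were 4428 to 4803 TPM among controls and 3675 to 6167 TPM under both treatments, and the part of this spread in Plxnb3 and Sema4d was not tested.

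**Figure D3:**
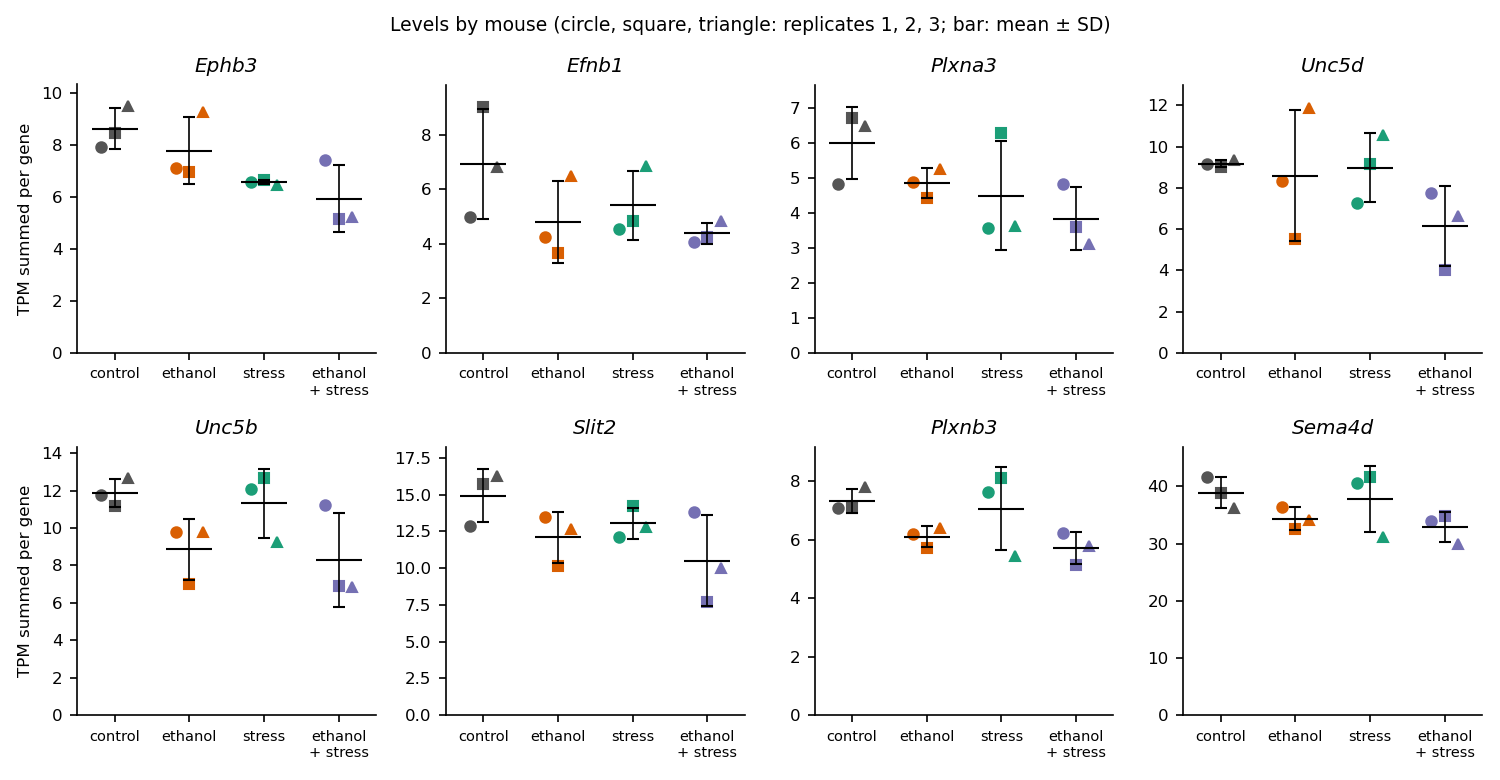
TPM summed per gene (vertical axis, from 0) of 8 guidance genes in each mouse, by group, with the group mean ± SD (black). Ephb3 in ethanol + stress mice (7.42, 5.17 and 5.22 TPM) lies below all control mice, whereas for Unc5b and Slit2 ethanol + stress mouse 1 lies within the control range or at its edge.

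Over the module, 54 of 69 genes were lower and 15 higher in ethanol + stress than in control mice, with a median of -0.15 on the log2 scale. Among all tested genes 45.9% were lower and the median was 0.02. On a common total, 62 guidance genes were lower with a median of -0.28, but this scaling shifted the median of all genes by -0.12, and relative to all genes the median was -0.18 as against -0.17. With the trend over length removed, 51 were lower with a median of -0.13. The size of the difference depended on the mice, being -0.06 with 46 genes lower without mouse 2, and -0.29 with 56 lower without mouse 1. Without ethanol + stress mouse 1, 7 guidance genes passed p below 0.01, all lower (4.14% of all genes passed), and these were Ephb3, Slit2, Sema3e, Unc5b, Slit1, Ephb6 and Plxna3, with log2 differences from -0.75 to -0.65. Their adjusted p was 0.237. With the trend over length removed as well, 9 passed (4.61% of all genes), with Plxnb1 higher and 8 genes lower.

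**Figure D4:**
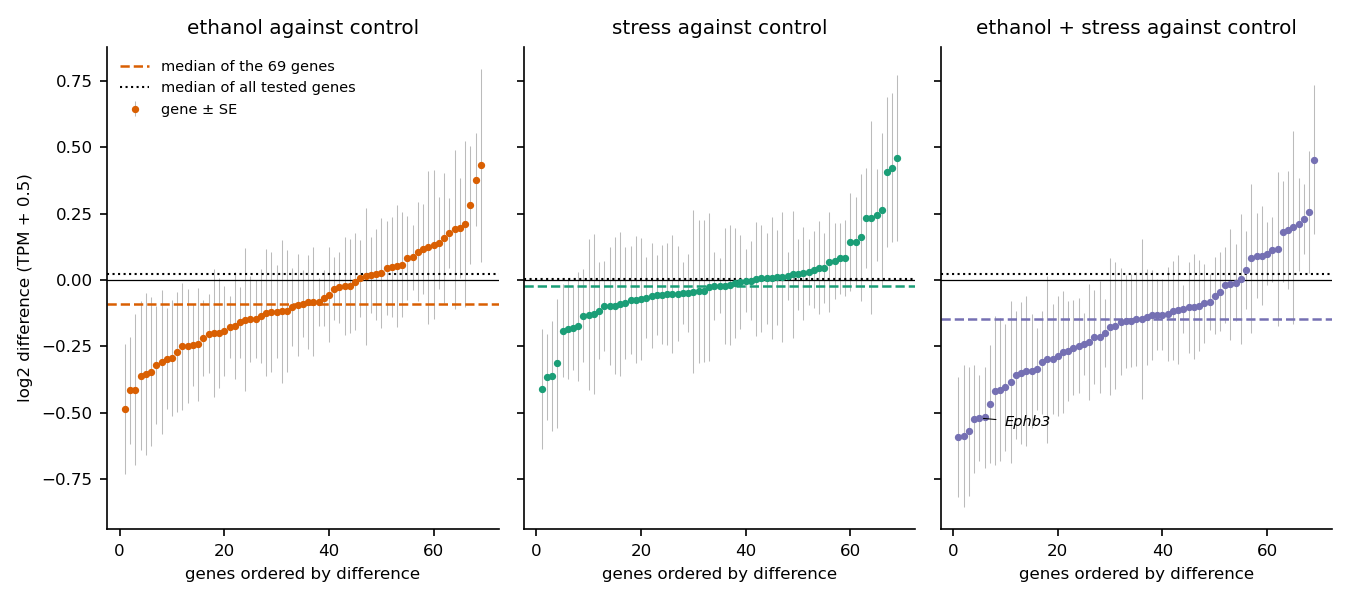
Log2 difference from control with its SE for the 69 genes, ordered by size, with 1 panel per treated group; the dashed line is their median and the dotted line the median of all tested genes. The medians are -0.09, -0.02 and -0.15 for the guidance genes and 0.02, 0.00 and 0.02 for all genes, and Ephb3 is the labelled gene with p below 0.01.

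The factorial contrasts set 6 mice against 6. For ethanol, as the mean of its differences in unstressed and stressed mice, no guidance gene passed p below 0.01 (1.12% of all genes did) and 6 passed p below 0.05 (5.79% of all genes did). The lowest p was that of Unc5b (log2 difference -0.43 ± 0.14 SE, unadjusted p = 0.0107, adjusted p = 0.760 by limma), and the other 5, Slit2, Plxnb3, Sema4d, Sema3e and Ephb4, differed by -0.32, -0.26, -0.18, -0.35 and 0.27. Unc5b was the 1 gene of 69 with p below 0.01 with the trend over length removed (-0.38, 1.14% of all genes) and the 1 of 65 with a minimum of 1 TPM (-0.43, 1.04% of all genes). Without stress mouse 3, Plxnb3, Sema4d and Unc5b passed (1.03% of all genes did), and without ethanol + stress mouse 1, 7 genes did (Unc5b, Sema3e, Slit2, Slit1, Ephb6, Plxna4 and Epha4, all lower), beside 3.54% of all genes, or 11 with the trend over length removed as well (4.17% of all genes). For stress, 1 gene passed p below 0.01 (0.586% of all genes did), which was again Ephb3 (-0.37 ± 0.11 SE, unadjusted p = 0.00754, adjusted p = 1.0 by limma), and Plxna3 was the other of 2 with p below 0.05 (3.28% of all genes). The Ephb3 call was lost when any of 8 libraries was left out (control mice 2 and 3, ethanol mouse 3, the 3 stress mice and ethanol + stress mice 2 and 3), with p up to 0.0215, and also on a common total and with a replicate block. The interaction of ethanol and stress was not detectable for any guidance gene at p below 0.01 (0.461% of all genes passed). At p below 0.05 it covered 2 genes (2.69% of all genes), the low-level ligand Efna5 (log2 interaction -0.97) and Sema4c (-0.54), both with adjusted p of 1.0 by limma.

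The families were read in the same comparisons. All 3 Slits were lower than in control in each of the 3 comparisons, with medians of -0.30 for ethanol, -0.09 for stress and -0.41 for both treatments. Their sum was 78.5, 82.3 and 79.5 TPM among controls, 68.7, 51.9 and 82.6 TPM under ethanol, 66.3, 89.95 and 70.6 TPM under stress and 92.1, 44.6 and 53.2 TPM under both treatments. Ethanol + stress mouse 1 was the highest of all 12 mice and mouse 2 the lowest, so that the groups overlapped. The 5 netrin receptors were all lower in ethanol + stress mice (median -0.25), as were both neuropilins (-0.29) and all 3 ephrin-B ligands (-0.27). Robo receptors were split, with 2 lower and 2 higher (median -0.03), and EphB receptors were lower for 3 of 5 (median -0.22). Ephrin-A ligands were lower for 4 of 5, with a median of -0.08. Plexins were lower for 7 of 9 (median -0.34), with Plxnb1 and Plxnd1 higher at 0.23 and 0.20. EphA receptors were lower for 8 of 9, with a median of -0.10. The class 4 to 7 semaphorins were lower for 11 of 13 (median -0.16), and the class 3 semaphorins for 5 of 7 (median -0.15). Neither netrin passed p below 0.05 in any comparison, with Ntn1 at -0.12 and Ntn4 at 0.09 in ethanol + stress mice. Apart from Ephb3, no member of these families passed p below 0.01, and family sums of ligands (516 ± 15.4 TPM among controls, 455 ± 70.2 TPM under both treatments) and receptors (809 ± 31.3 and 714 ± 184 TPM) differed by less than the SD of the treated mice.

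The highest members illustrate the overlap between groups. Epha4 averaged 148 ± 17.3 TPM among controls, 121 ± 44.3 TPM under ethanol, 145 ± 27.0 TPM under stress and 121 ± 58.3 TPM under both treatments, where the single mice were at 188, 80.0 and 95.9 TPM. Its highest and lowest values of all 12 mice thus came from the same group. Epha7, which binds ephrin-A ligands, had group means of 82.2, 82.8, 86.6 and 82.2 TPM. Slit1 averaged 48.2 ± 1.34 TPM among controls and 38.2 ± 17.1 TPM under both treatments, at 57.9, 27.6 and 29.1 TPM. Sema7a had group means of 56.0, 52.9, 56.5 and 51.9 TPM. Dcc was at 7.26, 7.47, 7.30 and 6.76 TPM on average in the 4 groups, in the order control, ethanol, stress and ethanol + stress.

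The other leading genes of each family, whose control levels are given above, had these means in the ethanol, stress and ethanol + stress groups, in that order (SD, n = 3). Among ligands, Slit3 averaged 15.7 ± 2.97, 16.8 ± 1.90 and 14.5 ± 5.55 TPM. Sema3e averaged 18.5 ± 3.41, 21.7 ± 4.03 and 17.2 ± 6.47 TPM. Sema3c averaged 16.2 ± 2.34, 13.4 ± 1.30 and 16.3 ± 1.69 TPM. These 3 ligands are secreted. Sema6b averaged 47.6 ± 7.05, 49.6 ± 0.862 and 44.1 ± 6.97 TPM. Efna3 averaged 36.1 ± 4.34, 37.1 ± 1.51 and 35.6 ± 3.30 TPM. Efna1 averaged 7.45 ± 1.27, 6.36 ± 1.166 and 6.32 ± 0.955 TPM. These are held at the cell surface. Efnb3 averaged 43.8 ± 5.92, 51.5 ± 2.49 and 44.9 ± 8.28 TPM. Efnb2 averaged 15.9 ± 3.24, 15.2 ± 1.45 and 13.02 ± 4.78 TPM. Of the netrins, Ntn4 averaged 3.17 ± 0.722, 3.49 ± 0.723 and 3.09 ± 0.275 TPM. Ntn1 averaged 2.92 ± 0.338, 3.33 ± 0.244 and 2.76 ± 0.791 TPM. Among receptors, Robo2 averaged 38.6 ± 11.7, 42.9 ± 2.84 and 35.8 ± 8.87 TPM. Robo1 averaged 21.7 ± 4.88, 21.6 ± 3.41 and 18.8 ± 3.42 TPM. Nrp1 averaged 40.9 ± 9.596, 49.2 ± 8.81 and 43.4 ± 14.3 TPM. These bind Slits or, for Nrp1, class 3 semaphorins. Nrp2 averaged 14.8 ± 4.06, 17.5 ± 2.68 and 13.9 ± 4.07 TPM. Plxnb1 averaged 29.4 ± 2.65, 26.9 ± 3.16 and 30.8 ± 5.40 TPM. Plxna4 averaged 21.3 ± 6.498, 26.8 ± 7.53 and 20.9 ± 8.64 TPM. Nrp2 and Plxna4 are partners in binding class 3 semaphorins, and Plxnb1 binds Sema4d. Ephb6 averaged 39.7 ± 9.96, 45.4 ± 2.86 and 36.4 ± 14.0 TPM. Ephb1 averaged 12.3 ± 0.538, 12.5 ± 0.331 and 13.6 ± 1.45 TPM. Of the netrin receptors, Unc5a averaged 31.1 ± 5.52, 34.2 ± 3.34 and 30.8 ± 8.64 TPM. Unc5c averaged 15.1 ± 2.98, 16.2 ± 3.13 and 13.4 ± 2.25 TPM.

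Genes outside the name rule were read from lists of further guidance cues and receptors (18 genes, such as Rgma, Neo1, Dscam and Flrt2) and of intracellular effectors (55 genes, such as the collapsin response mediators and cofilin). None of these 73 genes passed p below 0.01 in any of the 6 comparisons (limma), where 0.461% to 1.12% of all genes did, so that a count of 0 is near that share. In ethanol + stress mice 53 were lower and 20 higher than in control, with a median of -0.09, beside 45.9% of all genes lower and a median of 0.02. The further cues and receptors were lower for 15 of 18 (median -0.15) and the effectors for 38 of 55 (median -0.05).

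At the level of single transcripts, 250 of 419 guidance transcripts passed the filter, and 2 were called for ethanol (1.26% of all tested transcripts), 1 for stress (0.914%) and 5 for both treatments (1.21%) at p below 0.01. The interaction was called for 3 guidance transcripts (0.854% of all tested transcripts), the ethanol main effect for 2 (1.47%), which were Epha4-207 and Sema3f-204, and the stress main effect for 2 (0.934%), which were a transcript of Plxnb3 (ENSMUST00000155096.1, -0.61) and Epha4-202 (1.89), both listed at 0 in 3 libraries. Kallisto shares a read pair among all transcripts it fits. Only stretches of 31 bases that no other transcript holds mark 1 transcript alone, and the rest of an estimate comes from divided read pairs. Such stretches, from GENCODE M21 transcripts of GRCm38, are shown for Robo4-202 and Epha4-207, each beside the same place in another coding transcript of its gene. The paired transcripts also differ elsewhere, with lengths of 3878 bases for Robo4-202 and 3226 for Robo4-201, and of 3043 bases for Epha4-207 and 6328 for Epha4-201. Robo4-202 keeps, as coding sequence, an intron of 156 bases of Robo4-201 (chr9:37405742-37405897, + strand), which gives it 184 particular stretches of 31 bases. In the first sequence the kept intron is in capitals, and in the second the exon that follows the splice in Robo4-201 is in capitals.
Robo4-202: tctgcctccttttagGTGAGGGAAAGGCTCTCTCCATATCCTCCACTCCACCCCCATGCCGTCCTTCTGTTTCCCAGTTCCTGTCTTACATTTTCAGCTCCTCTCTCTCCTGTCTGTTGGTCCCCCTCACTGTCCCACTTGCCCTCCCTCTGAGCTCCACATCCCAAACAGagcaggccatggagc
Robo4-201: tctgcctccttttagAGCAGGCCATGGAGC

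Robo4-202 was listed at 0 in all 3 control mice, and at 1.02, 1.08 and 0.521 TPM under ethanol, 0.911, 1.012 and 0.835 TPM under stress and 1.49, 0.570 and 0.317 TPM under both treatments, which correspond to 9.29 to 48.6 estimated read pairs. Every treated mouse lay above every control mouse. The level of 3 read pairs per control library averaged 0.103 TPM. Group means were 8.44-fold of this level under ethanol, 8.89-fold under stress and 7.66-fold under both treatments. These ratios cover counting error only and are no bounds, since read pairs are divided among Robo4 transcripts. The unadjusted p values by limma were 0.00127, 0.000887 and 0.00293 with adjusted p of 0.533, 0.853 and 0.669, and the 3 tests share the same control mice. Robo4-202 reached the floor of 0.1 TPM in 6 libraries only through treated mice, so that with control at 0 it was tested only because treated mice were higher. With no filter the p values were 0.00211, 0.00152 and 0.00451. The sum over all Robo4 transcripts did not follow it, at 1.74, 2.82 and 1.19 TPM among controls, 2.10, 1.43 and 1.45 TPM under ethanol, 1.64, 1.79 and 1.70 TPM under stress and 2.49, 2.05 and 2.30 TPM under both treatments (log2 differences -0.12, -0.07 and 0.26). In control mice Robo4-204, a transcript annotated for nonsense-mediated decay that did not pass the filter, held 1.74, 1.07 and 0.422 TPM (100%, 37.8% and 35.6% of the Robo4 sum), whereas it was listed at 0 in 7 of the 9 treated mice and at 0.338 and 0.333 TPM in the others. How far the 0 of Robo4-202 in control mice reflects the division of read pairs among Robo4 transcripts was not tested. Summed endothelial markers were 159 to 167 TPM among controls and 142 to 184 TPM in treated mice. Robo4-201 was also called in ethanol + stress mice, at 0.339, 0.505 and 0.659 TPM against 0.000441 TPM or less in control (unadjusted p = 0.00869, adjusted p = 0.814 by limma). Its group mean was 3.99-fold of the counting limit, which is likewise no bound. Robo4-201 also passed the filter only through treated mice, and its call was lost without any of 8 libraries (the 3 control mice, ethanol mouse 3, stress mouse 1 and the 3 ethanol + stress mice), with p up to 0.0319, and under 7 of the processing alternatives.

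Epha4-207 is a transcript annotated for nonsense-mediated decay, which joins exon 1 of Epha4 to the exon that is the third of Epha4-201 and so lacks an exon of 68 bases (chr1:77511683-77511750, - strand). It has 28 particular stretches of 31 bases among 3013, all across this junction. Most of its sequence is shared, so that its estimate also takes in divided read pairs. In the first sequence the exon that Epha4-207 lacks is in capitals, with 15 bases of each neighbouring exon, and in the second the capitals mark the exon after the junction.
Epha4-201: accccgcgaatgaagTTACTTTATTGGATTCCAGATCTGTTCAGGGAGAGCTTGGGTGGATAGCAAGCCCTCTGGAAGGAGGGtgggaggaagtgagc
Epha4-207: accccgcgaatgaagTGGGAGGAAGTGAGC

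Epha4-207 was at 9.75, 8.35 and 8.88 TPM among controls, 4.99, 4.34 and 8.11 TPM under ethanol, 6.90, 7.68 and 7.73 TPM under stress and 5.48, 4.91 and 4.39 TPM under both treatments, from 94.1 to 227 estimated read pairs each. Every mouse of all 3 treated groups lay below every control mouse, ethanol + stress mouse 1 included, although that mouse had the highest Epha4 sum (188 TPM). The share of all transcripts without overlap was not counted. In ethanol + stress mice the log2 difference was -0.81 ± 0.20 (SE, unadjusted p = 0.00233, adjusted p = 0.657 by limma), and the call was lost without control mouse 1 or without ethanol + stress mouse 3, with p up to 0.0106. In ethanol mice the difference was -0.63 (unadjusted p = 0.0105, adjusted p = 0.779 by limma), and in stress mice -0.26 (unadjusted p = 0.235 by limma). As a share of the Epha4 sum, Epha4-207 was 5.06% to 7.47% in control and 2.91%, 6.14% and 4.58% in ethanol + stress mice, so that the shares overlapped.

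Sema3f-204 was called in ethanol and in ethanol + stress mice, but holds no stretch of 31 bases of its own, and its estimate rests on the division of shared read pairs. It was at 1.28, 0.674 and 1.15 TPM among controls, listed at 0 in 2 ethanol mice and at 0.317 TPM in the third, and at 0.535, 0.0198 and 0.0807 TPM under both treatments, where 2 mice held fewer than 3 read pairs. The adjusted p were 0.697 and 0.814 by limma, and the ethanol call was lost without control mouse 1, control mouse 3, ethanol mouse 1 or ethanol mouse 2. The sum over all Sema3f transcripts did not pass p below 0.05 in any comparison (log2 differences 0.19, -0.13 and -0.15). The last transcript called against control, Unc50-207, belongs to a gene outside the guidance families, and was at 0, 0 and 0.694 TPM among controls and 2.61, 1.55 and 2.18 TPM under both treatments (adjusted p = 0.657 by limma). Its call was lost under 3 alternatives, among them leaving out control mouse 1 or control mouse 2, with p up to 0.0110 for these libraries.

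**Figure D5:**
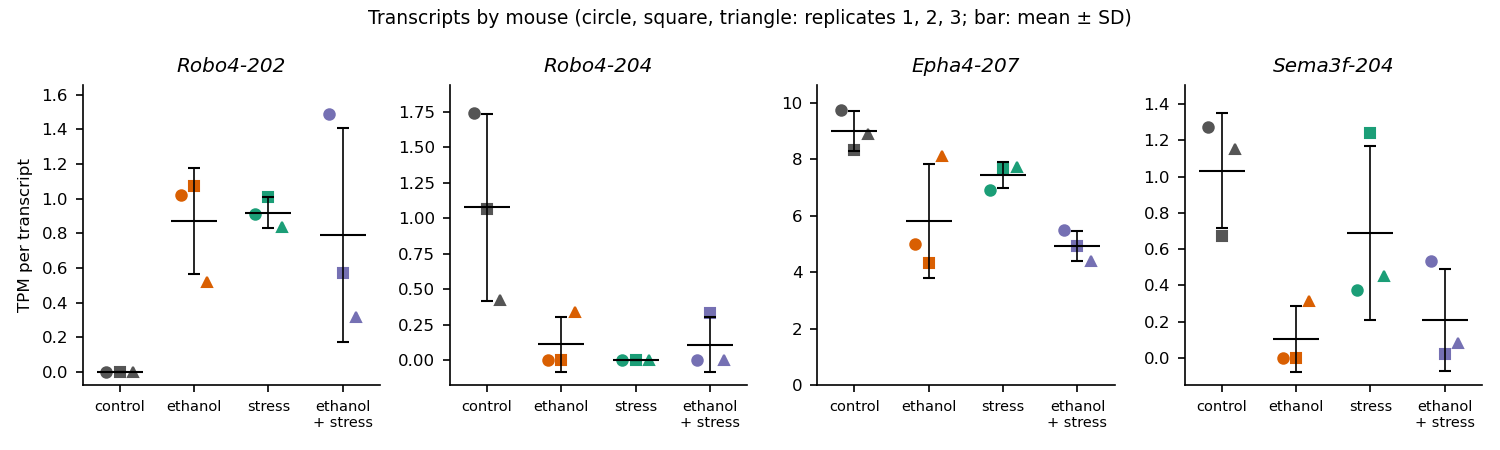
TPM of 4 transcripts (vertical axis, Robo4-202, Robo4-204, Epha4-207 and Sema3f-204) in each mouse, by group, with the group mean ± SD (black). Robo4-202 is at 0 in the 3 control mice and between 0.317 and 1.49 TPM in the 9 treated mice, Robo4-204 is highest in control mice, and Epha4-207 in ethanol + stress mice (4.39 to 5.48 TPM) lies below control (8.35 to 9.75 TPM).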

How the data were processed

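Hippocampal RNA of 12 mice was sequenced by the study from stranded libraries depleted of rRNA. Per the labels and methods, kallisto and sleuth were used by the authors on an Ensembl transcriptome (mm10); their versions are not given in the sources used here. The deposited values are a signal, TPM per transcript scaled between libraries, with sums of 889222 to 1173650. Of 115270 transcripts, 113580 matched GENCODE M21 by identifier. TPM was summed per gene, and a floor of 0.1 TPM reached by 6 of 12 libraries left 18434 genes and 59852 transcripts, whose log2(TPM + 0.5) was fitted with limma 3.58.1 (R 4.3.3, eBayes with trend) in 1 model of the 4 groups, without a replicate block. A p below 0.01 is a call, as in the study, and adjustment for multiple testing (Benjamini-Hochberg) took in every tested feature. Differences are on the log2(TPM + 0.5) scale, which understates those of low genes. Read pairs came from steps in the low values (77.1% to 81.4% whole within 0.1), so that no count test was run, and limits cover counting error only. The fit was tested on simulated data. Members and lists were chosen with earlier results of these data known.

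Genes given in full had p below 0.01 in any comparison, or p below 0.05 against control without overlap. Of each family the 2 highest genes are named, and up to 4 called transcripts per comparison. Other genes were named after their values were seen. Tried as alternatives were pseudocounts of 0.1 and of 1, the floor raised to 1 TPM, no filter, size factors by median of ratios, a common total, removal of the trend over length, eBayes without trend, only the 2 groups compared, a replicate block and leaving out each library, and, added after seeing the data, the trend removed without ethanol + stress mouse 1. Tables were made with pandas 2.3.3 and numpy 2.4.6 under Python 3.11.15, plots with matplotlib 3.10.9.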

Additional observations from a re-analysis of the deposited data

Results flagged for a closer look

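The interaction of ethanol and stress had an unadjusted p below 0.01 for 3 of 250 guidance transcripts, beside 0.854% of all tested transcripts, each with an adjusted p of 1.0 by limma. For Robo4-202 the interaction was -1.67 on the log2 scale, with the values given above, and since it was listed at 0 in all controls and passed the filter only through treated mice, this value depends on the pseudocount and is no bound. For Robo2-201, which holds no stretch of 31 bases of its own, it was -3.67, with 0, 3.16 and 0.540 TPM among controls, 1.80, 2.53 and 5.49 TPM in ethanol, 4.69, 4.17 and 2.602 TPM in stress and 0.218, 0.113 and 1.32 TPM in ethanol + stress mice. For Unc5d-205 it was 1.25, with 0.338, 0.460 and 0 TPM among controls, 0 in all ethanol mice, 0, 0 and 0.280 TPM in stress and 0.710, 0.369 and 0.267 TPM in ethanol + stress mice. Unc5d-205 was at 0 in 6 libraries and passed the filter only with the ethanol + stress mice, where it was high. Its interaction value also depends on the pseudocount and is no bound. In each of the 3, at least 1 control mouse was listed at 0. The count was 2 on a common total (0.84% of all tested transcripts), 2 with the replicate block (0.882%), 1 of 147 with a minimum of 1 TPM (0.593%) and 1 to 3 on leaving out each library (0.83% to 1.03%), with 1 without control mouse 1, control mouse 2, ethanol mouse 1, ethanol mouse 2, stress mouse 2 or ethanol + stress mouse 2.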

How the results depend on the processing

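Counts of called guidance genes were small, and several settings moved them. The share of all genes called stands in parentheses. Against control, ethanol + stress gave 1 gene, but 0 on a common total (0.64%), with only the 2 groups compared (0.917%) and with a replicate block (0.901%), and 9 with the trend over length removed and without ethanol + stress mouse 1 (4.61%). Leaving out each library gave 0 to 7 for it (0.618% to 4.14%, 7 without ethanol + stress mouse 1), 0 to 1 for stress (0.461% to 0.586%) and 0 throughout for ethanol (0.553% to 0.96%). The ethanol main effect gave 0 genes, 1 with a minimum of 1 TPM (1.04%), 1 with the trend over length removed (1.14%), 11 with that and without ethanol + stress mouse 1 (4.17%), and 0 to 7 on leaving out each library (0.749% to 3.54%), with 7 without ethanol + stress mouse 1 and 3 without stress mouse 3. The stress main effect gave 1 gene, 0 on a common total (0.494%), 0 with the replicate block (0.597%) and 0 to 1 on leaving out each library (0.445% to 0.879%). Called transcripts, with the share of all tested transcripts called in parentheses, numbered 2 in ethanol, 0 of 147 with a minimum of 1 TPM (0.903%), 8 of 392 with no filter (1.1%), 5 of 250 with the trend removed (1.2%), 5 with that and without ethanol + stress mouse 1 (1.31%), and 1 to 4 on leaving out each library (0.991% to 1.42%), with 4 without control mouse 2 or ethanol mouse 3 and 1 without control mouse 1. In stress they numbered 1, 0 with a minimum of 1 TPM (0.67%), 4 with no filter (0.719%), 2 with the replicate block (0.922%) and 1 to 3 on leaving out each library (0.852% to 1.02%), with 3 without control mouse 3. In ethanol + stress they numbered 5, 2 with a minimum of 1 TPM (356 of 35225), 3 on a common total (1.11%), 10 with the trend removed and without ethanol + stress mouse 1 (2.41%), and 2 to 10 on leaving out each library (1.02% to 2.23%), with 10 without ethanol + stress mouse 1 and 2 without ethanol + stress mouse 3. The ethanol main effect gave 2 transcripts, 1 of 147 with a minimum of 1 TPM (1.15%), 4 of 392 with no filter (1.25%), 4 with eBayes without trend (1.62%), 11 with the trend removed and without ethanol + stress mouse 1 (2.65%) and 2 to 6 on leaving out each library (1.2% to 2.26%), with 6 without stress mouse 3 or ethanol + stress mouse 1. The stress main effect gave 2, 1 of 147 with a minimum of 1 TPM (0.625%), and 0 to 3 on leaving out each library (0.877% to 1.04%), with 0 without ethanol mouse 3 or stress mouse 2. A minimum of 1 TPM leaves fewer transcripts to test, and for the other settings the cause was not tested. The block used replicate numbers, which did not pair the mice: deviations of same-numbered mice correlated at -0.17 to 0.16 over 18 pairs of mice, with 1 above 0.1. The call of Robo4-201 was also lost with a pseudocount of 1, no filter, a common total, the trend over length removed (with or without ethanol + stress mouse 1), eBayes without trend and the replicate block. None of the genes given in full, nor of the up to 4 called transcripts per comparison, changed direction in the comparison that named it, under any setting that gave it a value. Other genes, transcripts and comparisons were not checked in this way. With 3 mice a group, differences within the spread of single treated mice were not detectable.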
